A study of Mus musculus with 12 samples.

Results

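The tumour suppressor p53 (gene Trp53) and 31 genes listed as its regulators or transcriptional targets were followed in mouse heart. Whether p53 acts on each of them in this tissue was not tested. The 32 genes were taken as a named list with no rule on their levels here, although earlier results of these data were known. Each matched 1 of the 56350 gene IDs measured. Of the 32, 30 were high enough to test (a normalised read count of at least 10 in at least 3 libraries), as were 13916 genes in all. Cdkn1a, the cell cycle inhibitor p21, is not on the list.

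p53 is a transcription factor that is kept scarce by Mdm2 and Mdm4 and accumulates when DNA damage or other stress releases it from them. It then binds paired copies of a short palindromic half-site near its targets, which arrest the cell cycle, repair DNA, adjust metabolism or start apoptosis. In the heart, mechanical overload is a known setting in which p53 activity and loss of cardiac myocytes are studied.

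The libraries held polyadenylated RNA of the left ventricle apex, 8 weeks after surgery. Transverse aortic constriction (TAC), which narrows the aorta and loads the left ventricle, was compared with sham surgery in mice that lack the long noncoding RNA lincRNA-p21 throughout the body and in heterozygous littermates. There were 4 groups of 3 libraries: lincRNA-p21 knockout after TAC (KO TAC), heterozygous control after TAC (control TAC), knockout after sham (KO sham) and heterozygous control after sham (control sham). The controls thus carry 1 intact copy, and no wild-type group was included in these comparisons. The gene of lincRNA-p21, Trp53cor1, is itself known to be switched on by p53 and lies beside Cdkn1a. The labels do not give age, sex, strain or which part of the gene is deleted, nor do they say that each library is 1 animal, so the p-values measure the spread between these libraries only.

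Trp53cor1 had 0 reads in all 6 knockout libraries. It had 4, 0 and 3 reads in the control TAC libraries and 2, 0 and 2 reads in the control sham libraries, so that even the controls were near the limit of detection and a library at 0 allows up to 3 reads. Libraries held 10323605 to 13238934 reads. On the second principal component control sham replicate 3 lay farthest out, at -46.8, and its share of mitochondrial reads was 12.5%, against 14.7% to 20.0% elsewhere. KO TAC replicate 3 lay at -15.6 there, against 22.9 and 33.7 for KO TAC replicates 1 and 2. The marker list of cardiac myocytes summed to between 611733 and 840767 normalised reads per library, so the labelled tissue carried its defining markers.

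The members spanned a wide range of levels. Per kilobase of exon, averaged over 12 libraries, Ccng1 was highest at 2548 normalised reads, followed by Perp at 846, Sesn1 at 387, Btg2 at 266 and Ephx1 at 236. Ccng1 encodes cyclin G1, a p53 target that feeds back on Mdm2, and Perp encodes a membrane protein of cell junctions and apoptosis. Mdm2 averaged 147 per kilobase, Trp53 57.1, Mdm4 35.4 and Gdf15 33.5. The receptors Tnfrsf10b and Eda2r were the lowest of the tested members at 10.2 and 8.40. Both untested members were close to the detection limit. Pmaip1, the BH3-only apoptosis gene Noxa, had 60 reads over all libraries. Sco2, a cytochrome c oxidase assembly factor, had 1 read, in KO TAC replicate 3, and 68.3% of its exon bases are shared with Tymp on the same strand.

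**Figure D1:**
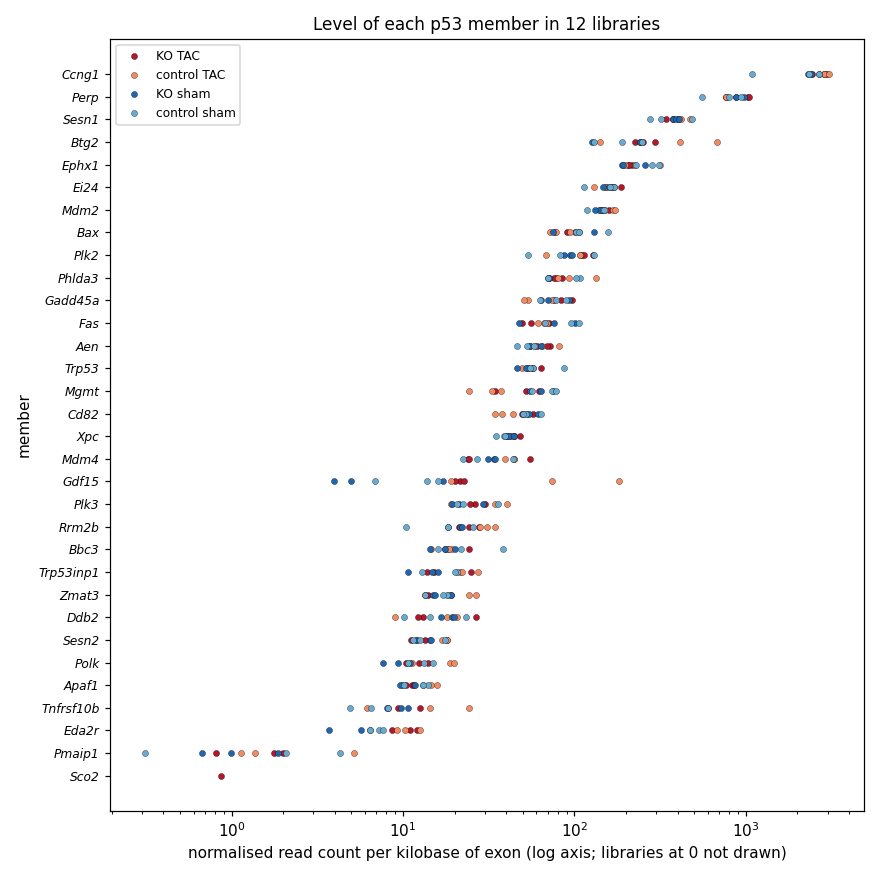
Level of each of the 32 members in normalised reads per kilobase of exon (log axis), 1 point per library, coloured by group, with members ordered by their mean. Ccng1 averaged 2548 and Eda2r, the lowest tested member, 8.40, and the points of Gdf15 are spread most widely among the tested members.

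Spread within a member differed as much. The highest library exceeded the lowest 46.4-fold for Gdf15, 5.40-fold for Btg2 and 4.96-fold for Tnfrsf10b, but only 1.45-fold for Mdm2 and 1.38-fold for Xpc. Control TAC replicate 2 held the highest value of 13 of the 30 tested members (43.3%), against 16.1% of all tested genes. Control sham replicate 3 held the lowest value of 8 members (26.7%), against 23.1% of all tested genes.

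**Figure D2:**
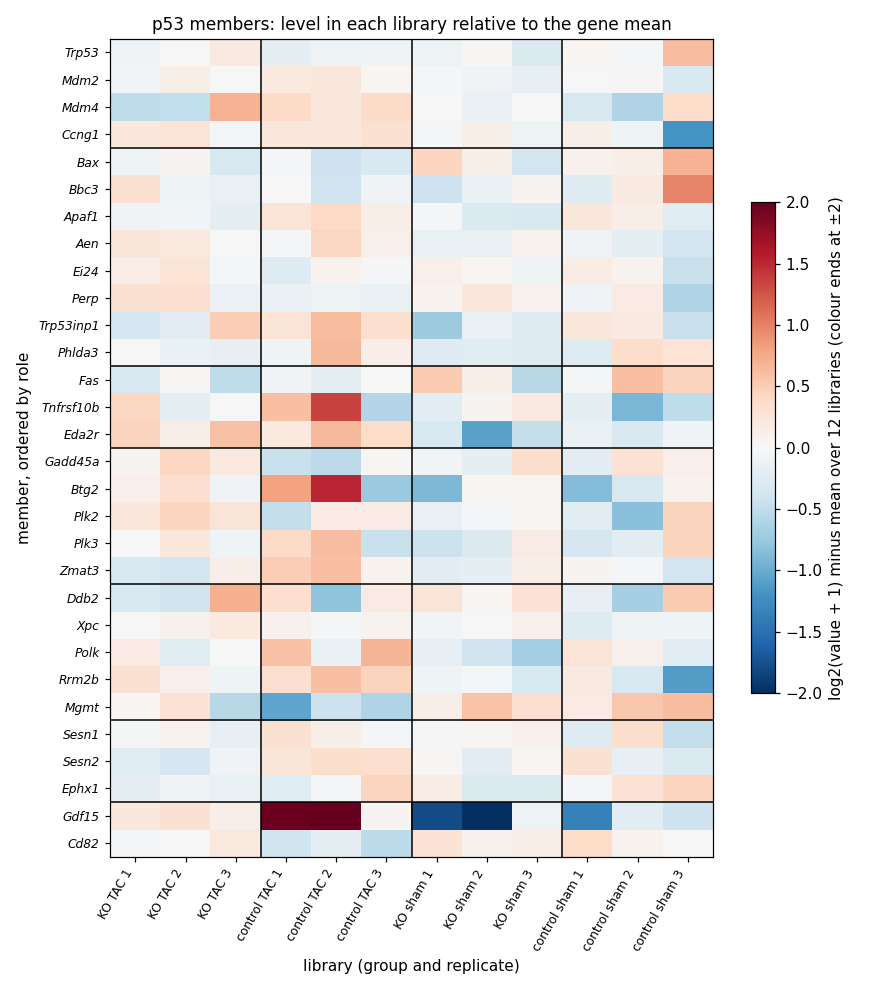
Heat map of the 30 tested members (rows, ordered by role) in 12 libraries (columns, by group), coloured by log2(value + 1) minus the member's mean over all libraries. Gdf15, Btg2 and Tnfrsf10b are strongest in control TAC replicates 1 and 2 and weaker in control TAC replicate 3, and Ccng1 and Rrm2b are lowest in control sham replicate 3.

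The promoters of 24 of the 32 members were found in the RefSeq table of build GRCm38.p6, which gives 250 bases before and 50 after each start. Pmaip1, Perp, Trp53inp1, Tnfrsf10b, Zmat3, Ddb2, Xpc and Rrm2b were not among them. The p53 half-site consensus is its own reverse complement, so that both strands are covered. It occurred in the promoters of 9 of these 24 members (37.5%), against 9.55% of 27025 genes. Counted by promoter, it occurred in 10 of 35 member promoters (28.6%), against 8.36% of 32851 promoters. The 9 members were Trp53, Mdm2, Ccng1, Bax, Aen, Ei24, Gadd45a, Polk and Sesn1. None of them passed for TAC against sham in controls (limma-trend, adjusted p under 0.05). Of the members that did pass, Gdf15, Mgmt and Cd82 held no half-site, and Rrm2b was not among the promoters found. The full consensus, 2 adjoining half-sites without a spacer, occurred in 0 of 24 members and 0.0111% of all genes. The half-site search was chosen after an earlier search for 2 adjoining half-site cores without a spacer, CNNGNNNNNNCNNG with CATG as at least 1 of its CNNG cores, on both strands, found it in 0 of 24 members, 13.1% of all genes and 11.5% of all promoters. The shares were not tested, since the members had been listed for their link to p53. The windows of 60 bases around the half-site (in capitals, 10 bases) are shown 5′ to 3′ for Trp53, Mdm2, Ccng1 and Bax, members whose control TAC and control sham libraries did not overlap and whose half-site lay before the start. After TAC, Mdm2 and Ccng1 lay higher and Trp53 and Bax lower. Aen also had groups without overlap, but its half-site, at -121 from 1 start, falls at position 11 after another and is not shown.
Trp53, chr11:69580259-69580318, plus strand, half-site from position -75: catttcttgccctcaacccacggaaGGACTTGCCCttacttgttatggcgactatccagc
Mdm2, chr10:117710910-117710969, minus strand, half-site from position -186: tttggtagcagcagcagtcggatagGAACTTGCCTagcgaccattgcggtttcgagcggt
Ccng1, chr11:40755437-40755496, minus strand, half-site from position -185: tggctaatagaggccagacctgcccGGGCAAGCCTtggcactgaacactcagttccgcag
Bax, chr7:45467065-45467124, minus strand, half-site from position -201: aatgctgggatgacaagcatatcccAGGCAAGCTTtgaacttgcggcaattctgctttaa

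Gdf15, the member with the largest difference after TAC, held no half-site in either of its promoters in the table. The 250 bases before its outermost start are shown with CATG, the most frequent centre of p53 half-sites, in capitals. CATG occurred in the promoters of 11 of 24 members (45.8%), against 64.8% of all genes. It occurred in 11 of 35 member promoters (31.4%), against 61.1% of all promoters, so its presence does not set Gdf15 apart.
Gdf15, chr8:70632457-70632706, minus strand: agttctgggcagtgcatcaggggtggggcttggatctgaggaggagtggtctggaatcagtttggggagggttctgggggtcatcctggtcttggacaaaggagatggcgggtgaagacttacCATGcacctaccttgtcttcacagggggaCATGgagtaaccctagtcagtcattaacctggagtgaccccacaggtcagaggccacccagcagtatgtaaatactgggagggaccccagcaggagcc

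The first comparison asked how TAC changed the p53 genes in heterozygous controls. The secreted stress hormone Gdf15 and the ribonucleotide reductase subunit Rrm2b rose, and the DNA repair enzyme Mgmt and the membrane protein Cd82 fell. These were 4 of the 30 tested members, 2 in each direction (limma-trend on log2(value + 1), adjusted p under 0.05). That share, 13.3%, was below the 21.6% of all tested genes that passed in this comparison, of which 11% passed upward and 10.6% downward. Trp53 itself, Mdm2 and the apoptosis genes did not pass. Over the 30 members the median log2 difference was 0.22, with 21 above 0, against a median of 0.01 over all tested genes; with the trend of the differences with transcript length and GC content removed, the members' median was 0.08 against -0.04. Control TAC and control sham libraries did not overlap for 13 members (9 higher, 4 lower), 43.3% when the 35.5% of all tested genes is set beside it.

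Gdf15 encodes growth differentiation factor 15, a circulating member of the TGF-beta family. Its normalised read counts were 136, 339 and 35.4 in control TAC libraries and 12.8, 29.4 and 25.4 in control sham libraries, and it rose by 2.42 ± 0.68 (log2 difference ± SE, adjusted p = 0.0244). All control TAC libraries lay above all control sham libraries, but replicate 3 of control TAC lay close to the sham range while the other control TAC libraries were far above it. Gdf15 no longer passed when replicate 1 or 3 of control sham, or replicate 1 or 2 of control TAC, was left out, with adjusted p between 0.0670 and 0.0830. Cd82, a tetraspanin known as a suppressor of metastasis, had 114, 132 and 103 normalised reads in control TAC libraries and 193, 158 and 150.1 in control sham libraries. It fell by 0.52 on the log2 scale (SE 0.16, adjusted p = 0.0321), with no overlap between the groups. Cd82 no longer passed when replicate 1 or 2 of control sham, or replicate 1 or 3 of control TAC, was left out, with adjusted p between 0.0541 and 0.101.

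Among the 5 genes of DNA repair and nucleotide supply, 1 rose and 1 fell. Rrm2b, the p53-inducible small subunit of ribonucleotide reductase that supplies nucleotides outside S phase, had 257, 315 and 281 normalised reads in control TAC libraries and 234, 166 and 94.96 in control sham libraries. It rose by 0.87 ± 0.24 (adjusted p = 0.0180). All control TAC libraries were higher, and the lowest value was that of control sham replicate 3; without that library the difference was 0.52 with adjusted p = 0.0520, and without control TAC replicate 2 adjusted p was 0.0707. Mgmt, which removes alkyl groups from guanine, had 70.3, 108 and 96.0 normalised reads in control TAC libraries and 164, 213 and 226 in control sham libraries. It fell by 1.13 on the log2 scale (SE 0.23, adjusted p = 0.00297), every control TAC library was below every control sham library, and the call held in all 22 alternative settings. Ddb2 and Xpc, which recognise DNA damage in nucleotide excision repair, and Polk, a translesion polymerase, did not pass, with log2 differences of -0.00, 0.19 and 0.32.

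None of the 4 genes of p53 and its negative regulators passed. Trp53 had 201, 213 and 217 normalised reads in control TAC libraries and 233, 222 and 352 in control sham libraries, a log2 difference of -0.32 ± 0.17 (adjusted p = 0.188). All control TAC libraries were lower, by a small margin except against control sham replicate 3. Mdm2, the ubiquitin ligase that degrades p53, had 855, 875 and 766 in control TAC libraries and 744, 759 and 601 in control sham libraries, a log2 difference of 0.25 ± 0.13 (adjusted p = 0.160), again without overlap. For Mdm2 the adjusted p was 0.709 with the trend with length and GC removed. Mdm4, which blocks the activity of p53, had 659.7, 585 and 660.1 in control TAC libraries and 402, 332 and 647 in control sham libraries, with overlap and a log2 difference of 0.52 ± 0.29 (adjusted p = 0.210). Once the trend with length and GC was removed, Mdm4 differed by -0.00 (adjusted p = 0.996). Ccng1 had 10157, 10016 and 10769 normalised reads in control TAC libraries and 9409, 8196 and 3793 in control sham libraries. Its groups did not overlap, with a log2 difference of 0.63 ± 0.24 and an adjusted p of 0.0731, and the outlying value again belonged to control sham replicate 3.

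Of the 8 tested apoptosis effectors none passed. Bax, the pore-forming protein of the mitochondrial pathway, averaged 128 ± 18.0 normalised reads in control TAC libraries and 192 ± 47.9 in control sham libraries (SD, n = 3 each), a log2 difference of -0.56 with adjusted p = 0.0757 and no overlap. The sign turned once the trend with length and GC was removed, to 0.02 (adjusted p = 0.962). Aen, an apoptosis-enhancing nuclease, and Trp53inp1, a p53-induced stress protein, lay higher without overlap, at log2 differences of 0.37 (adjusted p = 0.0801) and 0.42 (adjusted p = 0.231). Bbc3, the BH3-only gene Puma, differed by -0.45, Apaf1, the scaffold of the apoptosome, by 0.23, Phlda3, an inhibitor of Akt, by 0.12, Perp by 0.04 and Ei24, a membrane protein of the endoplasmic reticulum, by 0.00 on the log2 scale. The signs of Bbc3 (0.13) and Apaf1 (-0.09) also turned with that trend removed.

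The 3 receptors Fas, Tnfrsf10b and Eda2r gave no call. Tnfrsf10b, the mouse receptor for TRAIL, had 77.9, 132 and 33.6 normalised reads in control TAC libraries and 44.7, 26.6 and 35.6 in control sham libraries, a log2 difference of 0.99 ± 0.37 (adjusted p = 0.0688). Control TAC replicate 3 lay within the sham range and the other control TAC libraries above it, and both count tests called the gene, edgeR with an adjusted p of 0.0352 and DESeq2 with 0.0147. Eda2r, the receptor of ectodysplasin A2, had 54.1, 74.2 and 60.6 in control TAC libraries and 42.6, 38.0 and 44.9 in control sham libraries, without overlap (log2 difference 0.57, adjusted p = 0.120). Fas differed by -0.42 with overlap.

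Among the 5 genes of growth arrest and stress kinases none passed either. Zmat3, a zinc finger protein that binds RNA, had 279, 303 and 208 normalised reads in control TAC libraries and 206, 197 and 153 in control sham libraries, a log2 difference of 0.50 ± 0.19 without overlap (adjusted p = 0.0675). Btg2, an antiproliferative cofactor of mRNA deadenylation, had 1135.5, 1869 and 385 in control TAC libraries and 355, 520.3 and 683 in control sham libraries, so that control TAC replicates 1 and 2 lay above and replicate 3 within the sham range (log2 difference 0.90, adjusted p = 0.243). Without that replicate Btg2, Tnfrsf10b and Zmat3 passed, with log2 differences of 1.54, 1.51 and 0.66. Gadd45a, a stress sensor, differed by -0.37, and the polo-like kinases Plk2 and Plk3 by 0.15 and 0.22. The sestrins Sesn1 and Sesn2, which restrain mTORC1, differed by 0.26 and 0.36, and Ephx1, which detoxifies epoxides, by -0.18, none of them past the threshold.

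**Figure D3:**
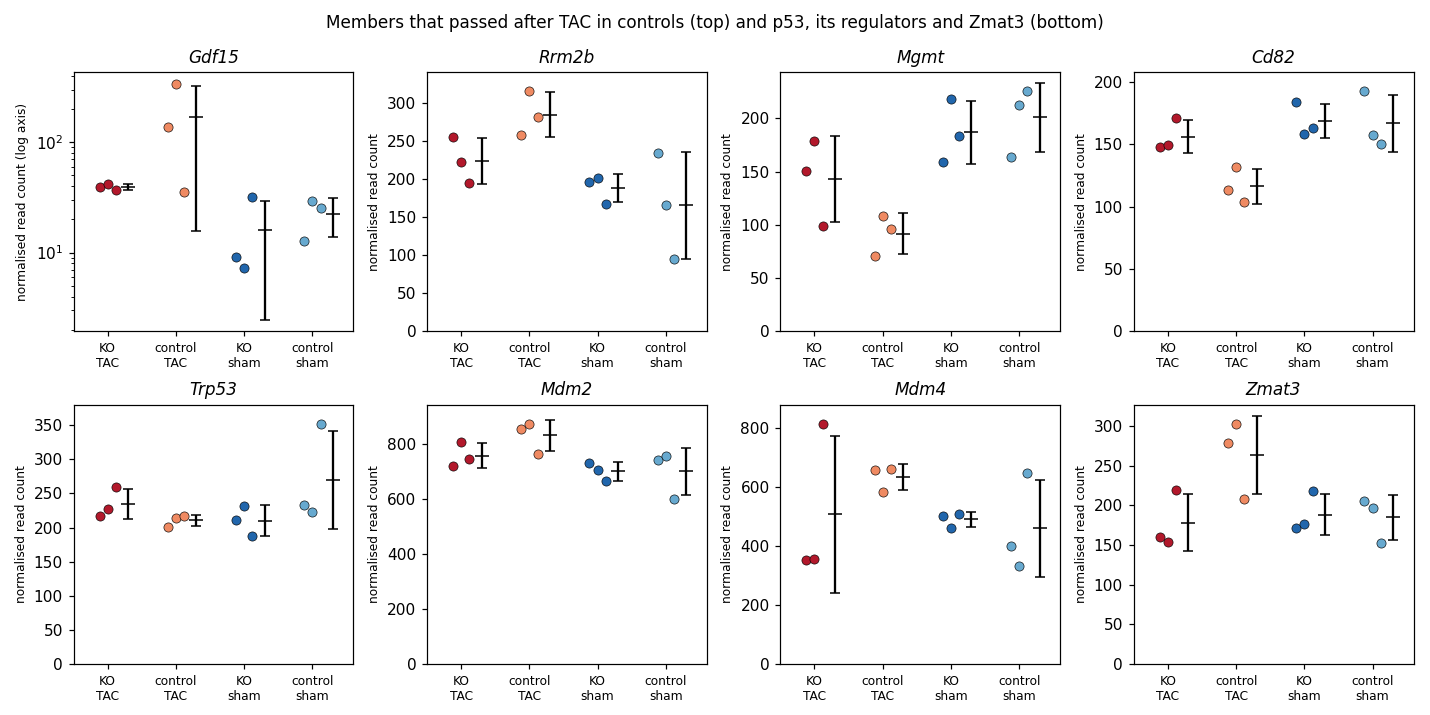
Normalised read count of 8 members by group, with 1 point per library and the mean ± SD (n = 3) beside it; the axis of Gdf15 is logarithmic and the others start at 0. The members that passed after TAC in controls are in the top row, where control TAC libraries lie above (Gdf15, Rrm2b) or below (Mgmt, Cd82) every control sham library, and Mdm4 in the bottom row has 1 high library each in KO TAC (815) and control sham (647).

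Several features of the libraries moved with the control comparison, and their part in it was not tested. Bulk RNA cannot tell fewer cells of a type from less RNA per cell. The summed level of 8 mesothelial markers was 61.5 to 193 in control TAC libraries and 216 to 567 in control sham libraries, and 5 of the 8 fell. The 6 atrial myocyte markers, which include the overload gene Nppa, summed to 2962 to 6293 against 452 to 968, and 5 of 6 rose. Of the 7 erythroid markers, 6 were tested and 3 fell, with sums of 2412 to 4136 in control TAC and 6177 to 6764.5 in control sham. The sums of macrophage markers (3335 to 5378 in control TAC, 3993 to 5330.0 in control sham) overlapped and 0 of 8 passed, and 2 of 7 mural, 1 of 4 Schwann and 0 of 8 endothelial markers fell. Of 8 cardiac myocyte markers 2 rose and 3 fell, of 8 fibroblast markers 1 rose and 1 fell, and of 6 proliferation genes 1, Mki67, rose. The lymphocyte and adipocyte lists had 2 tested genes each, with no call. Differences between control TAC and control sham also ran with transcript length (Spearman rho 0.39 over 13762 genes) and GC content (rho -0.44). With that trend removed 1605 of all 13916 tested genes and 3 members passed: Gdf15, Mgmt and also Phlda3, at 0.67 with adjusted p = 0.0276. Rrm2b then differed by 0.41 (adjusted p = 0.167) and Cd82 by -0.29 (adjusted p = 0.273).

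The same comparison was made in the knockouts, where Gdf15 and Eda2r gave the largest differences but no member passed. The count was 0 of 30 members (limma-trend), and 1 gene in all, 0.00719% of those tested, passed; edgeR and DESeq2 also called 0 members, and 2 members, Eda2r and Gdf15, had an unadjusted p under 0.05 (6.67%, beside 6.68% of all tested genes). The share of mitochondrial reads was 19.1% to 20.0% in KO TAC libraries and 14.7% to 16.8% in KO sham libraries, and its part was not tested. Differences between KO TAC and KO sham ran with GC content (Spearman rho -0.36) and hardly with transcript length (rho 0.01). KO TAC and KO sham libraries did not overlap for 4 members, all higher after TAC (Gdf15, Eda2r, Phlda3 and Plk2), 13.3% beside 17.2% of all tested genes. The median log2 difference was 0.11, with 20 members above 0. Gdf15 had 39.6, 42.1 and 37.1 normalised reads in KO TAC libraries and 9.16, 7.30 and 31.7 in KO sham libraries, a log2 difference of 1.53 ± 0.68 (adjusted p = 0.735). KO TAC libraries were close to one another, and replicate 3 of KO sham was near them while the others were lower. Eda2r had 64.7, 51.0 and 70.9 in KO TAC libraries and 37.6, 21.9 and 33.5 in KO sham libraries, a log2 difference of 1.00 ± 0.25 (adjusted p = 0.432). The groups of Eda2r did not overlap in the knockouts, nor in the controls.

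Gdf15 and Eda2r were the 2 of 30 members (6.67%) whose TAC libraries lay on the same side of the sham libraries in both genotypes without overlap, close to the 6.8% of all tested genes. The sign of the TAC difference was the same in both genotypes for 23 of 30 members (76.7%) and for 63.1% of all tested genes. The other members that passed in controls gave smaller differences in knockouts, with no call. Rrm2b had 255, 222 and 194 normalised reads in KO TAC libraries and 195, 202 and 166 in KO sham libraries (log2 difference 0.25 ± 0.24), with overlap. Mgmt had 151, 179 and 99.2 in KO TAC libraries and 159, 218 and 184 in KO sham libraries, a log2 difference of -0.41 ± 0.23 with overlap. Cd82 had 148, 149.7 and 171 in KO TAC libraries and 184, 159 and 163 in KO sham libraries, a log2 difference of -0.11 ± 0.16 with overlap.

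Whether the TAC effect differed between the genotypes was tested directly. For 0 of 30 members did the difference of the TAC effects pass (limma-trend; 0.309% of all tested genes did), and edgeR and DESeq2 called 0 as well. An unadjusted p under 0.05 was reached by 16.5% of all tested genes and by 2 members, Zmat3 (knockout effect minus control effect -0.59, 95% interval -1.16 to -0.03, adjusted p = 0.280) and Mgmt (0.72, 95% interval 0.05 to 1.39, adjusted p = 0.273). The interval for Gdf15 ran from -2.97 to 1.19, for Rrm2b from -1.34 to 0.09 and for Cd82 from -0.08 to 0.89, so that a call in controls and none in knockouts did not show a difference between the genotypes.

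**Figure D4:**
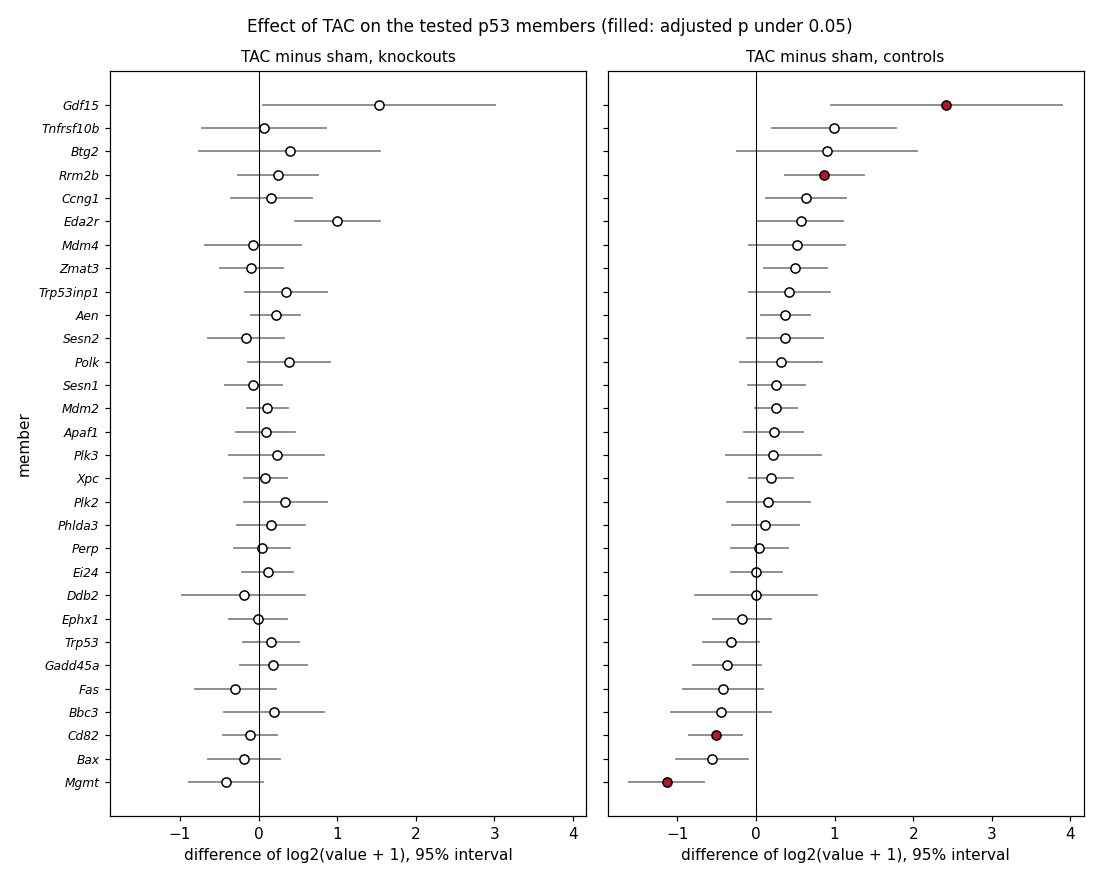
TAC minus sham difference of log2(value + 1) for the 30 tested members in knockouts (left) and controls (right), with 95% intervals, ordered by the value in controls. Gdf15, Rrm2b, Mgmt and Cd82 are filled in the right panel (adjusted p under 0.05), and no member is filled in the left panel.

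Knockout and control hearts were then compared after TAC. No p53 member passed (limma-trend, 0 of 30), while 8.23% of all tested genes did, and edgeR and DESeq2 also gave 0. An unadjusted p under 0.05 was found for 7 members: Gdf15, Zmat3, Apaf1 and Sesn2 at lower and Gadd45a, Mgmt and Cd82 at higher levels in KO TAC libraries. They were 23.3% of the members, beside 25% of all tested genes at that threshold. KO TAC and control TAC libraries did not overlap for 7 members (4 higher, 3 lower), 23.3% beside 31.1% of all tested genes. The median log2 difference was -0.14, with 19 members below 0, against 0.01 over all tested genes. Without control TAC replicate 2 the members' median was -0.04, and without KO TAC replicate 2 it was -0.20. This comparison and that of TAC with sham in controls share the control TAC libraries, so that a library that stands out there enters both.

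Trp53 had 217, 227 and 259.6 normalised reads in KO TAC libraries, which lay above all control TAC libraries, by less than 1 normalised read at the closest pair (log2 difference 0.15 ± 0.17, adjusted p = 0.620). Mdm2 had 720.3, 809.7 and 747 in KO TAC libraries, overlapping the control TAC range (log2 difference -0.13, adjusted p = 0.549). Mdm4 had 352, 357 and 815 in KO TAC libraries, where replicate 3 was above and the others below every control TAC library (log2 difference -0.44 ± 0.29, adjusted p = 0.368). Without KO TAC replicate 3 the difference was -0.84 with adjusted p = 0.0169. That was the only call of Mdm4 here in 22 alternatives, and with the length and GC trend removed adjusted p was 0.949. Replicate 3 was also the highest KO TAC library for Ddb2, with 73.1 normalised reads against 35.7 and 33.3 in the other KO TAC libraries.

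Zmat3 had 160.3, 154 and 219 normalised reads in KO TAC libraries, where replicates 1 and 2 were below every control TAC library and replicate 3 above the lowest (log2 difference -0.56 ± 0.19, adjusted p = 0.0735). It passed when replicate 3 of control sham, of control TAC or of KO TAC was left out, with adjusted p of 0.0368, 0.0384 and 0.0248. Gdf15 differed by -1.56 ± 0.68 (adjusted p = 0.175), with the KO TAC values of 37.1 to 42.1 above control TAC replicate 3 and far below the other control TAC libraries; without control TAC replicate 3 the difference was -2.41 with adjusted p = 0.0173. Mgmt differed by 0.62 ± 0.23 with overlap (adjusted p = 0.0976), and passed at 0.86 without KO TAC replicate 3 (adjusted p = 0.0187). Gadd45a averaged 151 ± 18.5 normalised reads in KO TAC libraries and 105 ± 22.4 in control TAC libraries (SD, n = 3 each), without overlap (log2 difference 0.53, adjusted p = 0.109). Cd82 lay higher without overlap (log2 difference 0.43, adjusted p = 0.108), as did Plk2 (0.34, adjusted p = 0.415). Sesn2, Apaf1 and Rrm2b lay lower without overlap, at log2 differences of -0.52, -0.38 and -0.35 and adjusted p of 0.163, 0.195 and 0.387.

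Cell markers and the share of mitochondrial reads differed here too, and their part was not tested. That share was 19.1% to 20.0% in KO TAC libraries and 15.5% to 17.1% in control TAC libraries, without overlap. The mesothelial sum was 204 to 427 in KO TAC libraries and 61.5 to 193 in control TAC libraries (2 of 8 markers rose), the atrial sum was 1416 to 2057 against 2962 to 6293 (4 of 6 fell), and 2 of 6 tested erythroid markers rose. Among fibroblast markers 3 of 8 fell, and among cardiac myocyte markers 4 of 8 rose and 1 fell. Differences ran with transcript length at a rho of -0.43 and with GC content at a rho of 0.16. With the length and GC trend removed 0 members passed.

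After sham surgery 0 of 30 members passed between the genotypes, as did 0% of all tested genes (limma-trend; edgeR called 0 genes and DESeq2 1 gene, no member), and 0 members had an unadjusted p under 0.05, as 4.34% of all tested genes did. KO sham and control sham libraries did not overlap for Xpc (higher) and Eda2r (lower), 6.67% beside 9.62% of all tested genes. Differences over all genes ran with GC content at a rho of -0.25 and with transcript length at a rho of 0.09. Trp53 had 212, 232 and 187 normalised reads in KO sham libraries, Mdm2 733, 706 and 666, and Mdm4 503.6, 462 and 507.5, each overlapping the control sham range. The 95% interval of the log2 difference was -0.69 to 0.03 for Trp53 and -0.26 to 0.27 for Mdm2. Over both surgeries together 0 of 30 members passed as well, against 0.632% of all tested genes (edgeR and DESeq2 also 0 members). There 7 members (23.3%) and 16.7% of all tested genes had an unadjusted p under 0.05, with Gdf15 lowest at a log2 difference of -1.11 ± 0.48 (adjusted p = 0.265). The other 6 were Polk (-0.44), Trp53inp1 (-0.40), Phlda3 (-0.35), Apaf1 (-0.31), Ephx1 (-0.28) and Perp (0.29).

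**Figure D5:**
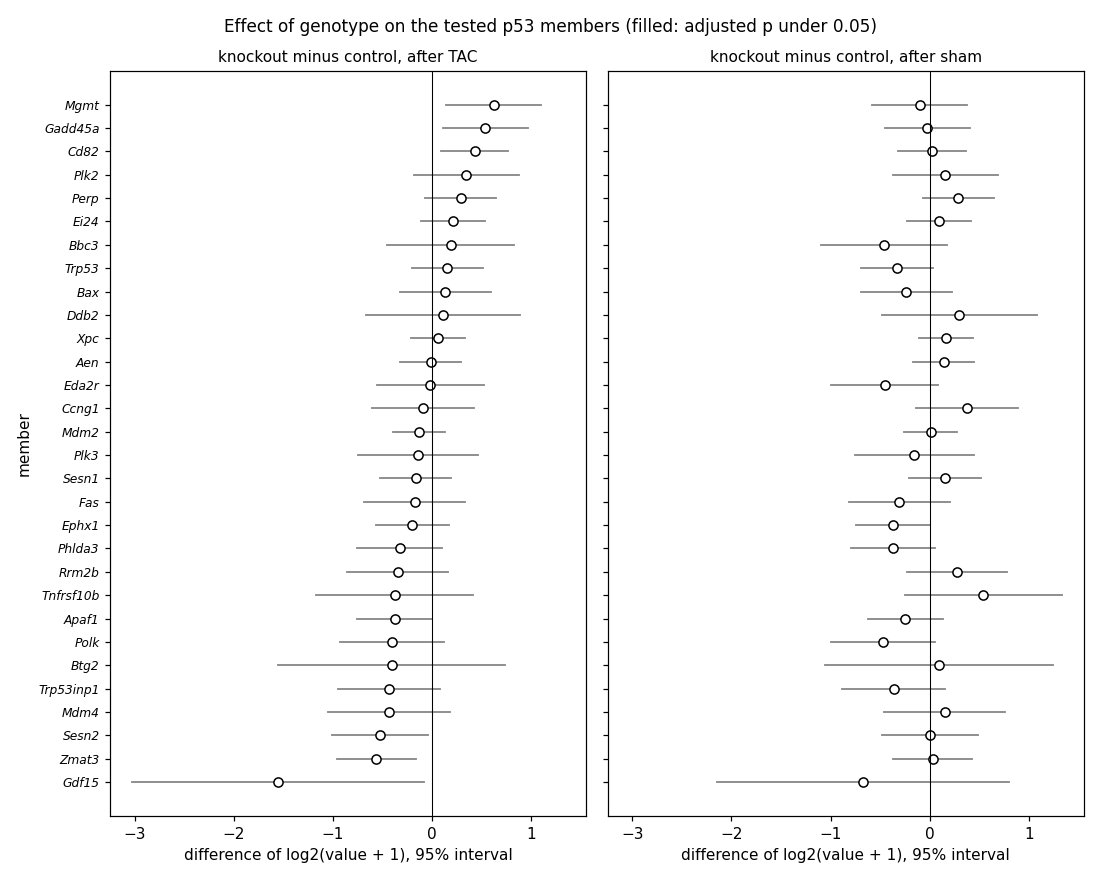
Knockout minus control difference of log2(value + 1) for the 30 tested members after TAC (left) and after sham (right), with 95% intervals, ordered by the value after TAC. No member is filled, since none passed at an adjusted p under 0.05, and Gdf15 has the lowest value after TAC at -1.56.

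The wider p53 pathway was read from 2 further lists. Of 28 regulators and partners of p53, 25 were tested, and in controls after TAC 7 rose and 2 fell, 36% beside the 21.6% of all tested genes that passed. Herc2, a ubiquitin ligase that acts on p53 tetramers, had 1695, 1786 and 1558 normalised reads in control TAC libraries and 1084, 1020 and 898 in control sham libraries, and rose by 0.75 (adjusted p = 0.00234). The damage kinase Atr rose by 0.60 (adjusted p = 0.00766) and the acetyltransferase Ep300 by 0.64 (adjusted p = 0.00816), while Ppp1r13l, the inhibitory partner iASPP, fell by 0.68 on the log2 scale (adjusted p = 0.00745). In each of these genes control TAC and control sham libraries did not overlap. With the length and GC trend removed 0 of the 25 rose and 2 others, Cop1 and Usp10, fell, so the 7 upward calls were not kept under that setting. Without control TAC replicate 2, 4 rose and 2 fell. Of all 13916 tested genes 1605 passed with the trend removed and 1549 without that replicate.

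Between the genotypes after TAC 4 of the 25 fell and 0 rose, 16% beside 8.23% of all tested genes. Herc2 had 826, 779.7 and 1094 normalised reads in KO TAC libraries, below all control TAC libraries, and fell by 0.91 on the log2 scale (adjusted p = 0.00220). Ep300, the DNA-dependent kinase Prkdc and the damage adaptor Trp53bp1 fell by 0.65, 0.69 and 0.54 (adjusted p = 0.0169, 0.0252 and 0.0382). With the length and GC trend removed Herc2 differed by -0.47 (adjusted p = 0.0259) and Usp10 by 0.51 (adjusted p = 0.0427), and no other of the 25 was called. Without control TAC replicate 1 Herc2 and Prkdc were called, and Herc2 was the only one called without control TAC replicate 2, without KO TAC replicate 1 or without KO TAC replicate 2. In the mean of the differences after TAC and after sham, Herc2 was lower by 0.48 (limma-trend, adjusted p = 0.0365). Its KO sham libraries, at 868, 1057 and 981 normalised reads, overlapped the control sham range of 898 to 1084. The call thus does not show a difference after sham surgery. It held without replicate 3 of control sham, control TAC or KO TAC. It was lost in the other omissions of 1 library and with the trend removed. In the remaining comparisons 0 of the 25 passed.

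Of 44 further p53 targets 42 were tested, and in controls after TAC 4 rose and 4 fell, 19.0% and thus close to the 21.6% of all tested genes. Siva1, a proapoptotic adaptor, had 97.3, 112 and 92.3 normalised reads in control TAC libraries and 183, 219 and 233 in control sham libraries, and fell by 1.06 on the log2 scale (SE 0.18, adjusted p = 0.000992). Prkab1, a regulatory subunit of AMP-activated kinase, fell by 0.56 (adjusted p = 0.00465), and Fdxr, the mitochondrial ferredoxin reductase, by 0.74 (adjusted p = 0.0165). Siva1 was called in all 22 alternative settings. Without control sham replicate 3, 1 rose and 6 fell, while 2402 of all 13916 tested genes passed. In knockouts none of the 42 passed after TAC.

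Between the genotypes after TAC 2 of the 42 rose and 2 fell, 9.52% and thus close to the 8.23% of all tested genes. Siva1 had 163, 183 and 153 normalised reads in KO TAC libraries, above every control TAC library, and rose by 0.72 (adjusted p = 0.0217). Prkab1 rose by 0.58 (adjusted p = 0.0104) and the helicase Ascc3 fell by 0.67 (adjusted p = 0.0347). These calls again share the control TAC libraries with the first comparison. Without KO TAC replicate 2, 0 of the 42 passed between the genotypes after TAC, and 1 passed without KO TAC replicate 1 (Prkab1), without control TAC replicate 1 (Prkab1) or without control TAC replicate 2 (Siva1). Of all 13916 tested genes 202, 214, 348 and 275 passed in these omissions, in the same order. With the length and GC trend removed Siva1, Prkab1 and Cdip1 were among those called there. Prkab1 also rose over both surgeries, by 0.40 (adjusted p = 0.0410).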

How the data were processed

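Left ventricle apex RNA was sequenced in 12 polyA libraries, 3 per group. STAR, featureCounts, SAMtools and build GRCm38.p6 are named per the submitters' processing notes; their versions, the annotation, strand setting and means of scaling were not given in the sources used here, although the kit is stranded per the labels. The deposited signal values are reads per gene divided by 1 size factor per library: 100% of values were whole multiples of 1 step (within 0.01), so whole reads were recovered, and the factors equalled median-of-ratios size factors. All sample columns were mapped (0 left out), and 55394 of 56350 IDs matched GENCODE M21. Floors of 3 reads cover counting error only; the 95% intervals come from the standard errors of the fit and cover the spread between libraries.

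limma-trend (limma 3.58.1, R 4.3.3, robust) used log2(value + 1) and 4 group means, on the 13916 genes that reached 10 in 3 or more libraries. Benjamini-Hochberg adjustment ran over all of them within each of 6 contrasts, at 0.05. The 22 alternatives were edgeR 4.0.16 and DESeq2 1.42.0 on recovered reads, TMM scaling, pseudocounts of 0.5 and 5, no filter, a filter of 50, the replicate block, only the groups compared, removal of the length and GC trend (loess span 0.5) and 12 omissions of 1 library. The fit was also run on simulated reads with known changes, the same dispersion for every gene and no outlying library. That run checks the code only and does not match the spread of these libraries. Replicates of a group differed by more than counting error. Same-numbered libraries correlated at -0.07 to 0.25 in their deviations over 18 pairs, so the numbers were not taken as pairs.

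All members may be named; values in each library were meant for members that passed and for Trp53, Mdm2 and Mdm4, and those of Ccng1, Btg2, Tnfrsf10b, Eda2r, Zmat3, Ddb2, Herc2 and Siva1 were added after being seen. From the 2 pathway lists up to 4 called genes with the smallest p were named per contrast; 1 of them is not reported here. Members and lists were chosen with earlier results of these data known. Reads of genes that share exon bases on opposite strands cannot be told apart if strand was not used in counting. This touches Sco2 (66.2% of exon bases, Ncaph2), Ddb2 (23.8%, Acp2), Gadd45a (19.1%), Rrm2b (8.04%), Ei24 (6.66%) and Plk3 (3.32%). Bax shares 12.2% and Ephx1 3.69% with a predicted gene on the same strand. Promoters came from RefSeq.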

Additional observations from a re-analysis of the deposited data

How the results depend on the processing

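In controls after TAC 4 members passed; the number was 2 with no filter (Mgmt, Rrm2b), 1 when only the groups compared were fitted (Mgmt) and 2 to 6 with 1 library left out. The replicate block gave 5 (Ccng1 added, adjusted p = 0.0421), edgeR and DESeq2 5 each (Tnfrsf10b added), and the length and GC trend removal 3. Mgmt passed in 22 of 22 alternatives (adjusted p 7.6e-05 to 0.0180), Rrm2b in 18 of 22 (0.00128 to 0.167), Cd82 in 15 of 22 (0.0253 to 0.273) and Gdf15 in 15 of 21 (0.00165 to 0.0933; not tested with a filter of 50). Between the genotypes 0 members passed after TAC and 0 to 3 with 1 library left out, and 0 over both surgeries and 0 to 1 with 1 library left out (Gdf15 without control TAC replicate 3, adjusted p = 0.0493). No member passed in knockouts after TAC, after sham or for the difference of TAC effects in any of these alternatives, including the replicate block. Over 6 comparisons 0 values of a called member changed sign, 19 gained and 17 lost a call. Over all tested genes the calls in controls after TAC numbered 3006, but 1433 when only the groups compared were fitted, 1605 with the length and GC trend removed and 1549 without control TAC replicate 2. Between the genotypes after TAC they numbered 1145, but 655 with the trend removed and 202 to 2143 with 1 library left out; DESeq2 gave 480 in place of 43 for the difference of TAC effects, 559 in place of 88 over both surgeries and 23 in place of 1 in knockouts after TAC. With 3 libraries per group precision was limited: the 95% interval of the difference of TAC effects of Gdf15 ran from -2.97 to 1.19. The cause of these shifts was not tested.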
